A study of Mus musculus with 6 samples.

Results

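Endothelial cells, hepatic stellate cells and portal fibroblasts surround the bile ducts, and their transcripts were read here in preparations of duct cells. A list of 36 genes that are used as markers of these cells was looked up by symbol in the deposited table, and all 36 of its genes were among the 24404 rows. The list was divided at a mean normalised count of 100 over the 6 libraries: 27 genes lay under it and are called traces, and 9 lay above it. RNA came from biliary epithelial cells (BECs, the cells that line the intrahepatic bile ducts) of adult C57BL/6 mice after 1 week of DDC, a porphyrinogenic feed additive used to damage the ducts. There were 3 Klf5 LKO libraries, genotype Alfp-CreTg/+;Klf5flox/flox, and 3 control libraries, genotype Alfp-Cre+/+;Klf5flox/flox, so that every mouse carried the floxed Klf5 gene and only Klf5 LKO mice the Cre transgene. The Alfp promoter combines albumin and alpha-fetoprotein elements and is active in the liver's epithelial lineage, so effects of Cre itself and of the loss of Klf5 cannot be told apart. The labels do not tell how the duct cells were isolated or which animals gave each library. The p-values therefore measure the spread among these libraries only, which may be technical.

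Vascular endothelium is recognised by adhesion molecules and receptors such as Pecam1, Cdh5 and Kdr, and the sinusoidal endothelium of the liver adds scavenger receptors such as Stab1, Stab2 and Lyve1. Stellate cells lie between sinusoids and hepatocytes, store vitamin A through Lrat, and together with portal fibroblasts make the fibrillar collagens of scar tissue. In DDC injury the ducts multiply inside a sheath of such cells. Several of the genes on the list code for secreted matrix or signalling proteins that are not restricted to these cells, which is why level and company matter when they are read in a duct preparation.

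The libraries held 11726934 to 24784167 reads assigned to genes, and Spearman correlations between pairs of libraries lay between 0.964 and 0.974. All values below are normalised counts, which are reads divided by 1 size factor per library, and 1 read corresponded to 0.745 to 1.58 normalised counts. The targeted gene Klf5 had 2056, 2018 and 2316 in control 1 to 3 and 977, 1192 and 1183 in Klf5 LKO 1 to 3, and it fell (log2 fold change -0.93, SE 0.14, adjusted p = 0.0103). The call ended without control 1, 2 or 3 (adjusted p = 0.0671, 0.0702 and 0.0573), with log2 fold changes of -0.96, -0.97 and -0.87. The counts cover the whole gene, so reads from outside the floxed part are included. The duct markers Epcam, with a mean of 11966 normalised counts per kilobase of exon, and Krt19, with 5941, were abundant in every library. Libraries differed in leukocyte transcripts: 12 leukocyte genes summed to 4386, 1985 and 696 in control 1 to 3 and to 2448, 730 and 636 in Klf5 LKO 1 to 3.

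The plot of all 36 genes by library separates the list into genes that were absent, genes with a few reads and genes that were abundant. No read was found in any library for 5 genes, Lrat, Des, Pdgfra, Col1a2 and Col3a1. The remaining 22 traces had means between 0.613 (Hgf) and 96.0 (Tagln). The 9 abundant genes had means between 128 (Stab1) and 19058 (Gas6), so that Tagln and Stab1 stand just inside and just outside the dividing value. The 27 traces together took 0.00177% to 0.00437% of the reads of a library, and the 9 abundant genes 0.258% to 0.328%. The spread over the 6 libraries, as SD in percent of the mean, had a median of 114% among the 22 traces with reads and of 23.2% among the abundant genes.

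**Figure D1:**
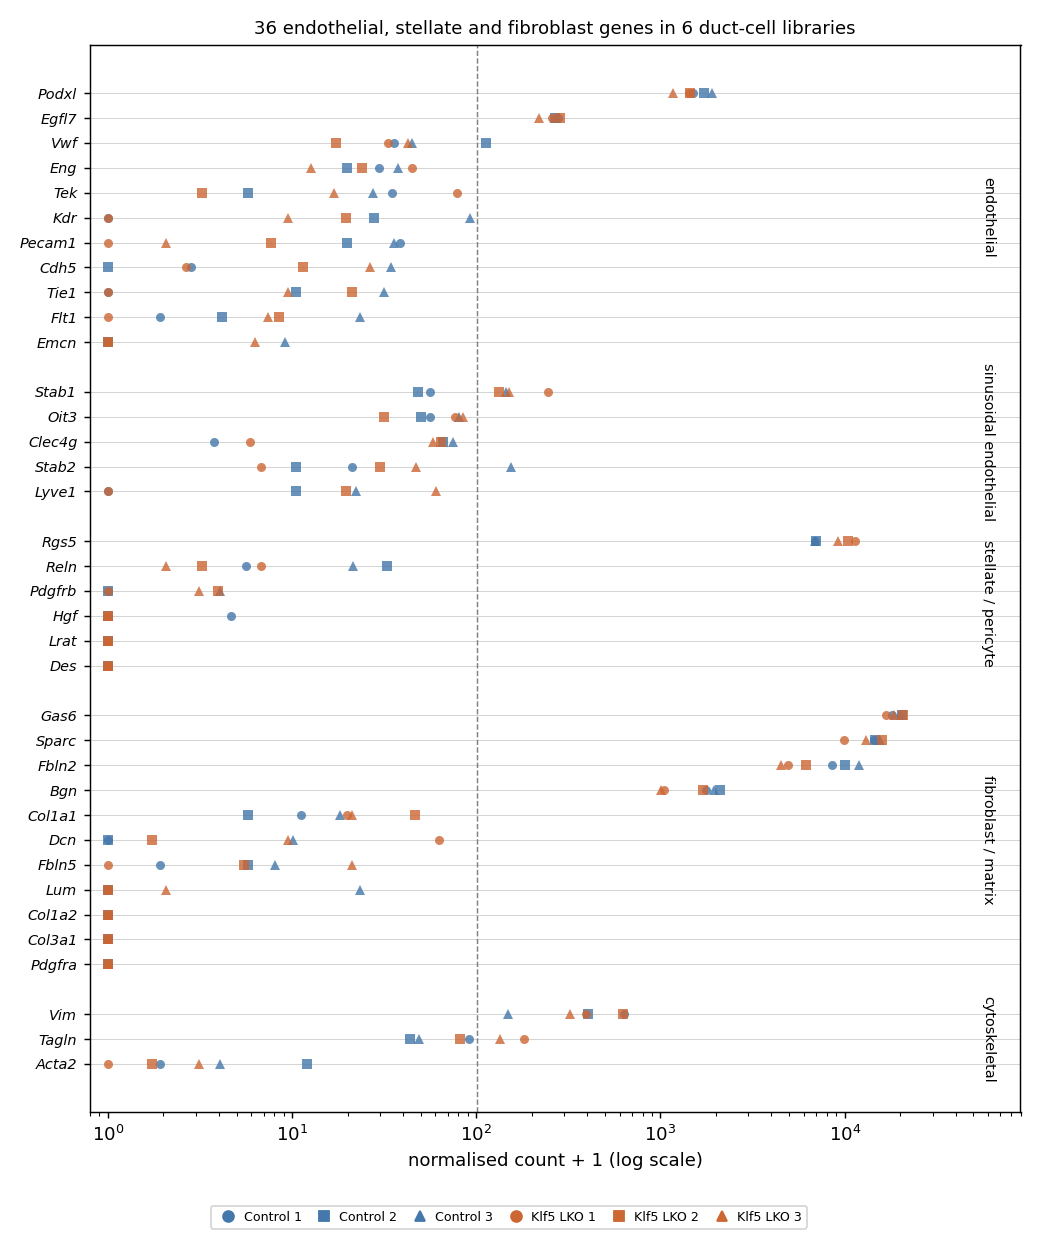
Normalised count plus 1 (log scale) of each of the 36 genes in control (blue) and Klf5 LKO (orange) libraries 1 (circles), 2 (squares) and 3 (triangles), with the dashed line at a mean of 100. The 5 genes without reads sit at the left edge, the traces scatter widely between libraries, and Gas6, Sparc, Rgs5 and Fbln2 stand at the right.

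For the comparison of Klf5 LKO with control, 24 of the 36 genes had a mean of at least 10 and reached the test. Fibulin-2 (Fbln2) fell in Klf5 LKO, and the other 23 tested genes did not pass. Among all 13490 genes tested, 0.489% were called lower and 0.163% higher, 0.652% in all. Of the 24 tested genes, 15 had a lower and 9 a higher log2 mean, and their median log2 fold change was -0.11, against -0.01 over all tested genes. At an unadjusted p under 0.05 there were 7 of the 24, Fbln2, Rgs5, Bgn, Pecam1, Stab1, Tagln and Podxl, where all tested genes gave 10.9%. The 2 groups did not overlap for 6 of the 24, 4 lower (Fbln2, Bgn, Podxl, Pecam1) and 2 higher (Rgs5, Col1a1), where all tested genes gave 7.88% lower and 7.72% higher. With 24 genes these shares rest on few members. In such bulk samples, fewer cells of a type and less RNA per cell cannot be told apart.

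**Figure D2:**
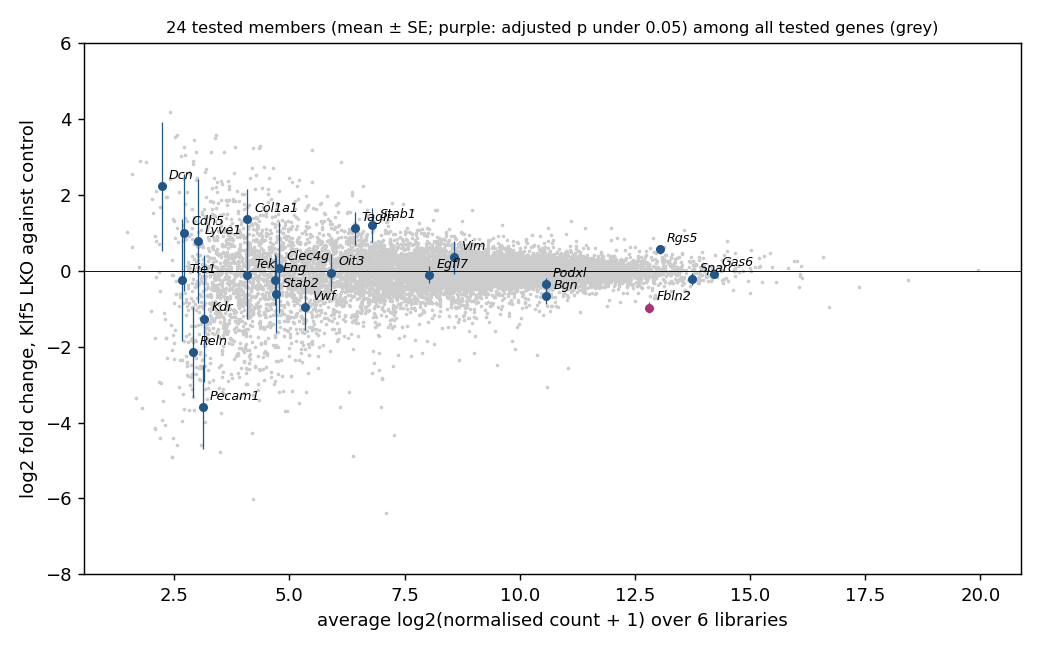
Log2 fold change of Klf5 LKO against control (log2 of normalised count plus 1) with its SE, plotted against the average log2 level, for the 24 tested genes (coloured) over all 13490 tested genes (grey). Fbln2 (purple) passed the test, while the traces on the left have long error bars, such as Dcn at 2.23 and Pecam1 at -3.58.

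The 9 general endothelial traces were detected at low and unequal levels. Cdh5, which codes for VE-cadherin, the adhesion molecule of endothelial junctions, had 1.84, 0 and 33.5 in control 1 to 3 and 1.64, 10.4 and 25.6 in Klf5 LKO 1 to 3. Kdr, the main VEGF receptor, had 0, 26.9 and 91.4 in control libraries and 0, 18.6 and 8.52 in Klf5 LKO. Tie1, an orphan receptor of the angiopoietin system, had 0, 9.48 and 30.5 in control libraries and 0, 20.1 and 8.52 in Klf5 LKO. In each of these 3 genes control 3 was the highest library, the groups overlapped, and adjusted p was 0.865, 0.840 and 0.975. Flt1, a second VEGF receptor, and Emcn, a sialomucin of capillaries and veins, had 41 and 13 reads over all 6 libraries and were not tested.

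Pecam1, the platelet endothelial adhesion molecule that leukocytes and platelets also carry, was the endothelial trace with the widest gap between groups. It had 41, 12 and 34 reads in control 1 to 3 and 0, 9 and 1 in Klf5 LKO 1 to 3, and the groups did not overlap. The log2 fold change was -3.58 (SE 1.11, 95% confidence interval -6.01 to -1.16) and did not pass (adjusted p = 0.231). It did not pass in any alternative in which it was tested. The leukocyte sum was 4386, 1985 and 696 in control 1 to 3 and 2448, 730 and 636 in Klf5 LKO 1 to 3, and its part in the difference was not tested.

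Tek, the angiopoietin receptor, was highest in Klf5 LKO 1 with 78.1, against 2.24 and 16.0 in Klf5 LKO 2 and 3 and 34.0, 4.74 and 26.4 in control. Eng, a co-receptor for TGF-beta, ranged from 11.7 to 43.5, and Vwf, the clotting factor stored by endothelium and platelets, from 16.4 to 112, highest in control 2. Tek and Eng were thus highest in a library in which Pecam1, Kdr, Flt1, Tie1, Emcn and Lyve1 had no read. Tek, Eng and Vwf did not pass (adjusted p = 0.983, 0.936 and 0.615). Eng shares 61 exon bases with Fpgs on the opposite strand, whose mean was 678, so reads of the latter may enter its count.

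The 4 sinusoidal traces were uneven too, with few reads of Clec4g and none of Lyve1 in the first library of each group. Stab2, a scavenger receptor for hyaluronan, had 20.2, 9.48 and 152 in control 1 to 3 and 5.75, 29.1 and 45.8 in Klf5 LKO 1 to 3. Clec4g, a C-type lectin of sinusoids, had 2.76, 64.8 and 74.2 in control libraries and 4.93, 63.3 and 57.5 in Klf5 LKO. Stab2 was highest in control 3, and Clec4g was low in replicate 1 of either group, at 3 and 6 reads. Lyve1, another hyaluronan receptor, had no read in these same 2 libraries and 9.48 to 59.6 in the other 4. Oit3, a liver-enriched secreted protein, was the steadiest trace, with 49.0 to 79.2 in control libraries and 30.6 to 84.1 in Klf5 LKO. Adjusted p was 0.879 for Stab2, 0.986 for Clec4g, 0.905 for Lyve1 and 0.984 for Oit3. In mean normalised counts per kilobase of exon, Oit3 had 22.3, Clec4g 18.1, Lyve1 6.23, Kdr 2.68 and Flt1 0.497.

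The endothelial traces differed widely between libraries of 1 group. Over the 13 general and sinusoidal traces, the number of genes with no read was 4, 2 and 0 in control 1 to 3 and 6, 1 and 0 in Klf5 LKO 1 to 3. Their summed normalised count was 216, 327 and 654 in control libraries and 242, 247 and 372 in Klf5 LKO. Control 3 held the highest value of 7 of the 13 genes. Without control 3 the mean sum of the control group went from 399 to 272, against 287 in Klf5 LKO, which reverses the order of the group means.

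In a longer list of other endothelial genes, control 3 was again the highest library. Of 44 such genes, 43 were in the table, 27 reached the test and 0 passed in either direction with limma. Their 31 members with a mean under 100, among them Ptprb, Esam, Plvap, Gpihbp1 and Mrc1, summed to 618, 411 and 1122 in control 1 to 3 and 265, 595 and 912 in Klf5 LKO 1 to 3. Esam, a junctional adhesion molecule, had 13, 8 and 86 reads in control 1 to 3 and 0, 41 and 48 reads in Klf5 LKO 1 to 3. Mrc1, the mannose receptor of sinusoids and macrophages, had 10.1, 11.1 and 118 in control libraries and 0, 44.7 and 127 in Klf5 LKO. The third library of each group was thus high and Klf5 LKO 1 low. The leukocyte genes had another order, with sums highest in control 1, Klf5 LKO 1 and control 2.

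**Figure D3:**
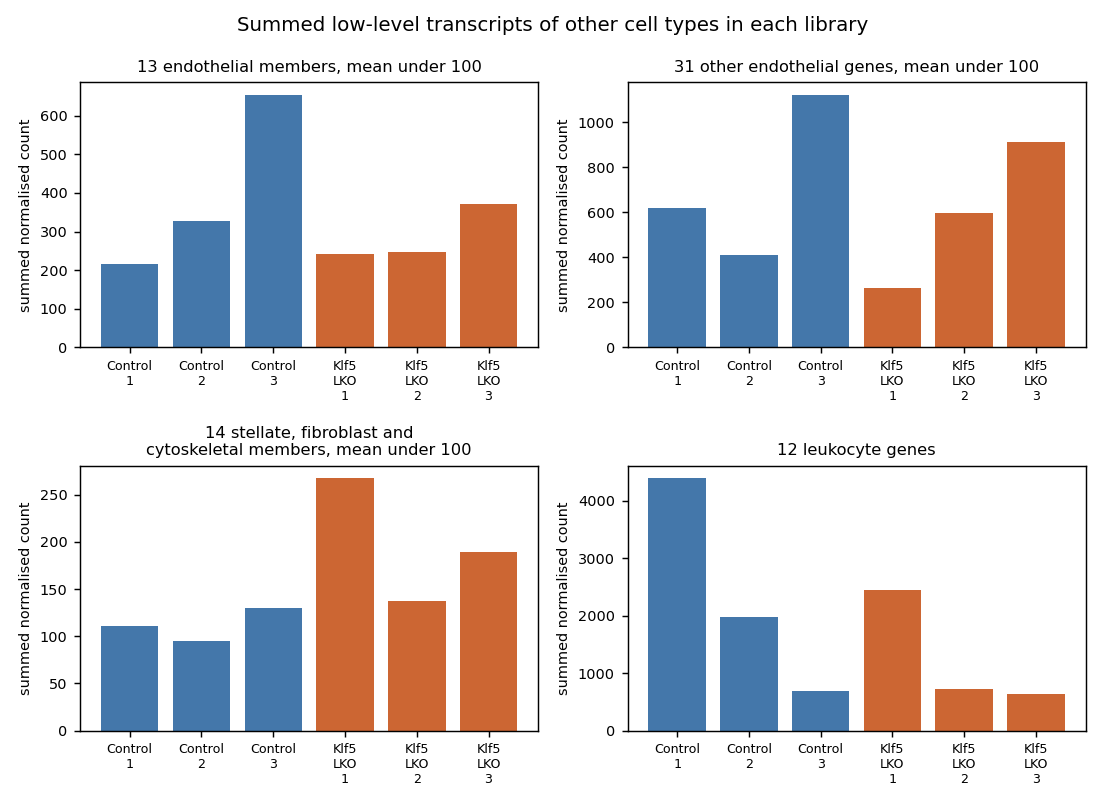
Summed normalised count per library (bars, 1 value each, no error) of the 13 endothelial traces, 31 other endothelial genes with a mean under 100, 14 stellate, fibroblast and cytoskeletal traces, and 12 leukocyte genes. Control 3 is highest in both endothelial panels (654 and 1122), while the leukocyte panel is led by control 1 (4386).

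Defining genes of stellate cells and fibroblasts were at or near 0. Lrat, which esterifies retinol in stellate cells, Des, their intermediate filament, Pdgfra, the PDGF receptor of fibroblasts, and Col1a2 and Col3a1, chains of fibrillar collagen, had 0 of 113214941 reads each. A count of 0 allows up to 3 reads over the 6 libraries, by counting error only. Pdgfrb, the PDGF receptor of stellate cells and pericytes, had 9 reads in all. Hgf, the hepatocyte growth factor that stellate cells secrete, had 4 reads, all in control 1. Reln, a secreted glycoprotein of stellate cells, had 5, 20 and 20 reads in control 1 to 3 and 7, 3 and 1 in Klf5 LKO 1 to 3, with overlapping groups and adjusted p = 0.565.

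Dcn, Lum and Fbln5 had most of their reads in single libraries. Dcn, the small proteoglycan decorin, had 75 reads in Klf5 LKO 1 (exact 95% Poisson interval 59.0 to 94.0), 1 and 8 in Klf5 LKO 2 and 3, and 0, 0 and 9 in control 1 to 3. Lum, the related lumican, had 22 of its 23 reads in control 3. Fbln5, an elastic fibre protein, had 19 of its 36 reads in Klf5 LKO 3. Col1a1, the other chain of type I collagen, had 10.1, 4.74 and 17.3 in control libraries and 18.9, 45.5 and 20.2 in Klf5 LKO. Its groups did not overlap, but the log2 fold change of 1.36 (SE 0.80) did not pass (adjusted p = 0.592), and its partner chain Col1a2 had no read. For 20 of the 22 traces with reads, endothelial ones included, the exact Poisson intervals of the highest and lowest library did not overlap. The exceptions were Pdgfrb and Hgf.

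Wider lists also held genes with no read, beside 17545 of all 24404 rows of the table that had at least 1 read. Among 18 further stellate genes, 7 had no read, including the transcription factors Lhx2, Hand2 and Tcf21, and among 30 further fibroblast and matrix genes 6 had none, including Thy1, Fbn1, Mfap4 and Col5a2. Of the 7 stellate and 16 fibroblast and matrix genes tested, 0 passed with limma. The abundant members of those lists were genes that epithelium also uses, such as Col4a1 and Col4a2, the basement membrane collagen chains, with means of 7342 and 4080, Fn1, fibronectin, with 27611, and Igfbp7 with 35729.

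The abundant genes of the list were read beside these absent markers. Gas6, the vitamin K-dependent ligand of the TAM receptors, was the most abundant, with 7479 normalised counts per kilobase of exon, above Krt19 on the same scale. It had 18008, 20487 and 20031 in control 1 to 3 and 16695, 20691 and 18434 in Klf5 LKO 1 to 3. Sparc, a collagen-binding matricellular protein, had 14335, 14638 and 15577 in control libraries and 9929, 15980 and 13038 in Klf5 LKO. The groups overlapped for both, with log2 fold changes of -0.07 (SE 0.13, 95% confidence interval -0.35 to 0.21, adjusted p = 0.887) for Gas6 and -0.22 (SE 0.16, interval -0.57 to 0.13, adjusted p = 0.672) for Sparc. Sparc was widely spread in Klf5 LKO (12982 ± 3026, SD, n = 3) and narrow in control (14850 ± 647, SD, n = 3).

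Fbln2 codes for fibulin-2, a calcium-binding glycoprotein of basement membranes and elastic fibres (chromosome 6, 91212455 to 91272540, plus strand, mm10). It had 8558, 10042 and 11929 in control 1 to 3 and 4926, 6128 and 4510 in Klf5 LKO 1 to 3. Every Klf5 LKO library lay below every control library. The mean fell from 10176 ± 1690 to 5188 ± 840 (SD, n = 3 each), or 1.96-fold, which is -0.97 on the log2 scale (SE 0.15, 95% interval -1.31 to -0.64, adjusted p = 0.0148). On the recovered reads the call held with edgeR (adjusted p = 0.0277), which called 0.623% of all tested genes, and with DESeq2 (adjusted p = 9.23e-08), which called 1.6% lower and 0.882% higher. For Fbln2 the authors' deposited table gave a shrunken log2 fold change of -0.86 and an adjusted p of 1.75e-07. It ended without Klf5 LKO 3 (adjusted p = 0.0656), control 2 (0.0987) or control 3 (0.0645). Leaving out single libraries gave values from -1.10 to -0.85 on the log2 scale. Of the fibroblast and matrix genes of the list, Pdgfra, Col1a2 and Col3a1 had no read in either group. Others were detected at low levels, with 134 reads of Col1a1, 93 of Dcn, 36 of Fbln5 and 23 of Lum over the 6 libraries. The cell source of Fbln2 was not tested.

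Bgn, which codes for biglycan, a small leucine-rich proteoglycan (chromosome X, 73483602 to 73495933, plus strand), had the log2 fold change next below 0 after that of Fbln2 among the abundant genes. It had 1757, 2107 and 1945 in control libraries and 1047, 1700 and 1001 in Klf5 LKO. The groups did not overlap, although Klf5 LKO 2 was close to control 1. At -0.67 on the log2 scale (SE 0.19, 95% confidence interval -1.09 to -0.25), the difference did not pass (adjusted p = 0.182). Without Klf5 LKO 2 it was -0.92 and passed (adjusted p = 0.0269).

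Rgs5, an inhibitor of G protein signalling best known from pericytes (chromosome 1, 169655501 to 169695813, plus strand), was higher in all 3 Klf5 LKO libraries. It had 6917, 6959 and 6876 in control 1 to 3 and 11394, 10427 and 9157 in Klf5 LKO 1 to 3. The groups did not overlap, and control libraries were within 41.2 (SD) of their mean of 6917, against 10326 ± 1122 in Klf5 LKO. The means differed 1.49-fold, or by 0.57 on the log2 scale (SE 0.12, 95% interval 0.31 to 0.83), and the difference did not pass with limma (adjusted p = 0.0592). It passed with DESeq2 on the recovered reads (adjusted p = 0.000166), a tool that called 2.48% of all tested genes, and in the authors' deposited table (adjusted p = 0.000183), which called 2.41% of the genes with an adjusted p. In both, Rgs5 and Fbln2 were the 2 genes of the list that were called.

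Some pericyte markers were at or near 0 beside Rgs5 and others were detected, and contractile genes were mixed in direction. With a mean of 1897 normalised counts per kilobase of exon, Rgs5 stood far above Pdgfrb at 0.248. Higd1b, Kcnj8 and Myh11 had at most 2.24, 6.10 and 5.32 normalised counts in any library. Other genes of the wider smooth muscle and pericyte list were higher, with means of 233 for Cspg4, 48.8 for Abcc9 and 17.7 for Notch3. Of 16 further smooth muscle and pericyte genes, 10 were tested and 0 passed with limma, and 2 (Actg2 and Synpo2) had no read. Of the 10 tested, 6 had a higher and 4 a lower log2 mean in Klf5 LKO, with a median log2 fold change of 0.28 against -0.01 over all tested genes. Smtn, the actin-binding smoothelin, had 792, 476 and 790 in control libraries and 1027, 1077 and 877 in Klf5 LKO without overlap and did not pass (adjusted p = 0.324). Mylk, the myosin light chain kinase, averaged 594 over the control and 839 over the Klf5 LKO libraries (adjusted p = 0.379). The difference on the log2 scale was 2.46 (SE 0.97) for Cnn1, the actin-binding calponin, 0.76 (SE 0.46) for Myl9, a myosin light chain, and 0.55 (SE 0.56) for Abcc9, a subunit of potassium channels. All 3 overlapped between groups, with adjusted p of 0.367, 0.607 and 0.788. The abundant tropomyosin Tpm1 had 8874 ± 784 in control libraries and 8191 ± 765 in Klf5 LKO (SD, n = 3 each). It was 1 of the 4 genes with a lower log2 mean. Their log2 fold changes were -0.44 (SE 1.49) for Pln, -0.32 (SE 0.47) for Tpm2, -0.18 (SE 0.32) for Cspg4 and -0.12 (SE 0.12) for Tpm1. Notch3 had 0.06 (SE 1.08).

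Of the 3 cytoskeletal genes of the list, Tagln and Vim were tested, and neither passed. Acta2, the smooth muscle actin that marks activated stellate cells, had 14 reads in all, of which 7 were in control 2. Tagln, an actin-bundling protein of smooth muscle, had 90.1, 42.7 and 47.8 in control libraries and 181, 80.5 and 134 in Klf5 LKO, with Klf5 LKO 2 below control 1. Its log2 fold change of 1.12 (SE 0.44) did not pass (adjusted p = 0.363). Of the 1988 exon bases of Tagln, 1241 are shared with the antisense gene Gm48529 and 108 with Pcsk7 (mean 619), both on the opposite strand. The strand setting of the counter is not given, so the level of Tagln is uncertain. Tagln made up much of the summed level of the 14 stellate, fibroblast and cytoskeletal traces, which was 110, 94.8 and 130 in control 1 to 3 and 267, 137 and 190 in Klf5 LKO 1 to 3. Vim, the intermediate filament vimentin of mesenchymal cells and leukocytes, had 631, 405 and 147 in control libraries and 394, 625 and 323 in Klf5 LKO. Vim was lowest in control 3 and highest in control 1 and Klf5 LKO 2, where the leukocyte sums were 696, 4386 and 730. The part of leukocytes in Vim was not tested (log2 fold change 0.36, SE 0.44, adjusted p = 0.826).

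Of the 3 abundant endothelial genes of the list, Podxl and Egfl7 varied little between libraries and Stab1 varied widely. Podxl, an anti-adhesive sialomucin of vessels that some epithelia and mesothelium also make, had 1493, 1720 and 1910 in control libraries and 1430, 1440 and 1167 in Klf5 LKO. Its groups did not overlap but nearly touched, and the log2 fold change of -0.34 (SE 0.15) did not pass (adjusted p = 0.432). Egfl7, a secreted vessel protein, had 271 ± 4.95 in control libraries and 253 ± 34.0 in Klf5 LKO (SD, n = 3 each; log2 fold change -0.11, 95% confidence interval -0.60 to 0.38, adjusted p = 0.904). Its SD over all 6 libraries was 9.10% of the mean, against 116% for Cdh5 and 143% for Kdr. Egfl7 shares 64 exon bases with Agpat2 on the opposite strand (mean 2091) and 264 with the gene model Gm20532 on its own strand, so its level is uncertain.

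Stab1, a scavenger receptor of sinusoidal endothelium and of macrophages, had 55.2, 47.4 and 143 in control 1 to 3 and 243, 133 and 149 in Klf5 LKO 1 to 3. Control 3 overlapped with the Klf5 LKO libraries, and at 1.21 on the log2 scale (SE 0.45, 95% interval 0.24 to 2.19) the difference did not pass (adjusted p = 0.324). Klf5 LKO 1, the highest library for Stab1, had 5.75 for Stab2 and no read for Lyve1. Stab1 shares 112 exon bases with Nt5dc2 on the opposite strand (mean 168), so reads of Nt5dc2 may enter its count. The Kupffer cell genes Clec4f, Vsig4 and Cd5l had no read in any library. In the same list of Kupffer cell and macrophage genes, Csf1r had a mean of 1279 and Cd68 of 176 (limma adjusted p = 0.785 and 0.981). Adgre1 and Timd4 were found in control 1 alone.

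**Figure D4:**
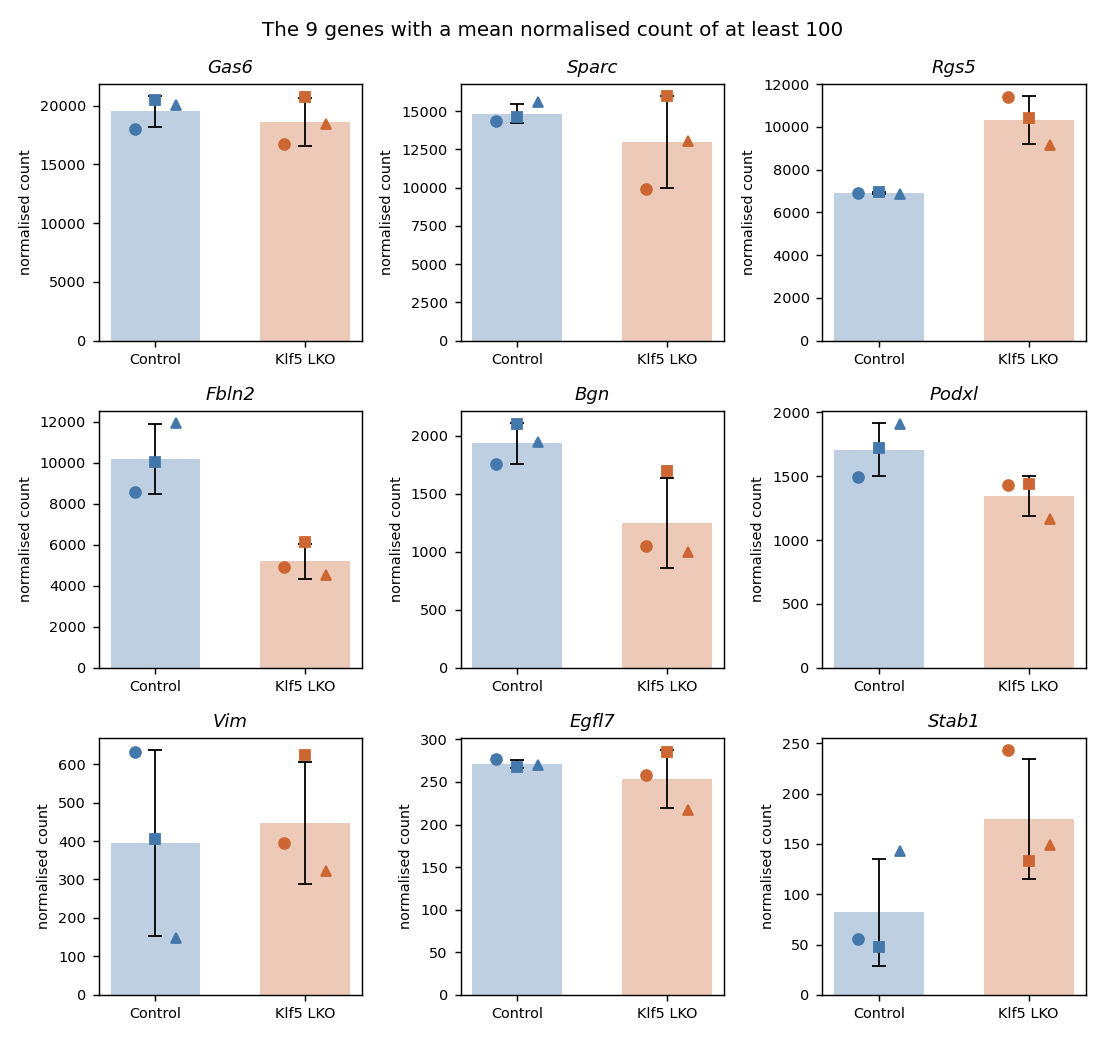
Normalised counts of the 9 abundant genes (mean of 100 or more), with bars for the group mean, error bars for the SD (n = 3) and points for libraries 1 (circle), 2 (square) and 3 (triangle). Klf5 LKO libraries lie below all control libraries for Fbln2, Bgn and Podxl and above them for Rgs5, of which Fbln2 passed the test.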

How the data were processed

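For each of the 3 Klf5 LKO and 3 control libraries, 4 ng of total RNA was amplified in 10 PCR cycles before and 7 after tagmentation, per the labels' protocols. Without molecular identifiers, PCR copies cannot be told from independent molecules, so Poisson intervals and limits from 0 reads cover counting error only. The submitters' processing notes name TopHat, Bowtie2, DESeq2 and the build mm10. The sources used here do not give the counter, its strand setting or the annotation. What the authors deposited per gene is a signal, a read count over the size factor of its library: 100% of values were whole multiples of the value of 1 read within 0.001, from which reads were recovered. For the comparison, the authors' deposited table lists mean signal, shrunken log2 fold changes, the Wald score, and p-values with adjusted p-values.

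Groups and replicate numbers came from the sample titles. limma 3.58.1 (eBayes with trend, R 4.3.3) was fitted to log2(value + 1), that is with pseudocount 1, on 13490 genes whose mean was 10 or more. Tests were two-sided, adjusted by Benjamini-Hochberg over all of these genes, with a threshold of 0.05. Adjusted p-values are from this fit unless another tool is named. For low genes its log2 fold changes could be larger or smaller in size than those from recovered reads. For Cdh5 limma gave 1.01, against 0.043 with edgeR, and for Kdr -1.26, against -2.10. Alternatives on recovered reads were edgeR 4.0.16, DESeq2 1.42.0 and limma-voom, calling 84, 335 and 73 genes. The others were TMM and upper-quartile scaling, other filters and pseudocounts, the replicate number as a block, and leaving out each library. The code was tested on simulated data. Positions and exon lengths come from GENCODE M21 (GRCm38, the assembly of mm10), which matched all 36 genes.

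The genes of the list and the wider marker lists were chosen with earlier results of these data known. All 36 genes are named, and of each wider list mainly the most abundant or any that passed, with others chosen after their values were seen.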

Additional observations from a re-analysis of the deposited data

How the results depend on the processing

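The count of called genes over all tested genes was 88, of which 22 were higher and 66 lower. It was 335 with DESeq2 (119 higher, 216 lower), and 13 were higher with no filter. Leaving out each library in turn it ranged from 14 to 103, from 1 to 22 for higher and from 13 to 81 for lower genes. Of the list, 1 gene was called. With a mean of at least 50 or with DESeq2 it was 2, with 1 of them, Rgs5, higher (log2 fold change 0.57 and 0.58, adjusted p = 0.0399 and 0.000166), and without single libraries 0 to 2 in all, 0 higher and 0 to 2 lower. The cause was not tested.

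Direction held in every alternative for 13 of the 24 tested genes. The log2 fold change of Tek was 0.026 with a pseudocount of 5, 0.54 with edgeR and 0.55 with DESeq2, against -0.11. Under the same 3 alternatives that of Clec4g was -0.0052, -0.17 and -0.17, against 0.09, and with edgeR and DESeq2 that of Oit3 was 0.047 and 0.046, against -0.04. Without single libraries the sign changed for Cdh5 (-0.091 to 2.46), Kdr (-3.15 to 0.11), Tek (-1.25 to 1.05), Tie1 (-1.63 to 1.04), Eng (-0.68 to 0.22), Stab2 (-1.43 to 0.51), Lyve1 (-0.53 to 2.48), Clec4g (-1.32 to 1.21), Oit3 (-0.31 to 0.41), Gas6 (-0.15 to 0.0038) and Vim (-0.23 to 0.81). Where an arm had 2 libraries, limma pooled the spread. The number of traces was 25 under a mean of 50, 28 under 200, and 26 to 27 without single libraries. Scaling by TMM moved the Klf5 LKO minus control difference of no class sum by more than the spread between replicates.

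Replicate numbers were not shown to pair the libraries: deviations of same-numbered libraries correlated at 0.18, -0.01 and 0.11, and Klf5 LKO 2 correlated best with control 3 (0.14). With the replicate number as a block, 110 genes were called over all tested genes and 1 of the list, Fbln2 (adjusted p = 0.0177). Depth limits the traces: 3 reads correspond to 2.24 to 4.74 normalised counts.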

Other observations

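Some genes of the wider endothelial list were abundant, unlike the traces. Ecscr, an endothelial surface protein, had 1744, 1892 and 1787 in control 1 to 3 and 1923, 2185 and 2363 in Klf5 LKO 1 to 3, without overlap between groups (limma log2 fold change 0.25, adjusted p = 0.530). Nrp1, a co-receptor for VEGF and semaphorins, had 1942 ± 176 in control libraries and 1675 ± 275 in Klf5 LKO (SD, n = 3 each; adjusted p = 0.639). Tspan7 had a mean of 2382 and Aass, a lysine-degrading enzyme, of 900 (adjusted p = 0.942 and 0.588).

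Markers of other cells that can be carried into a liver preparation were mixed in level. Of 10 mesothelial genes, 9 were in the table and 4 were tested, of which 1 fell, Msln, with 1165, 1302 and 1258 in control libraries and 0, 103 and 30.9 in Klf5 LKO (limma adjusted p = 0.0328). The Msln call ended with DESeq2 (adjusted p = 0.106), with no filter (0.0688), with a pseudocount of 0.5 (0.0610), and without control 1, 2 or 3 (0.159, 0.164 and 0.135) or Klf5 LKO 3 (0.0681), with log2 fold changes from -6.93 to -4.80 in these. Upk3b had at most 22.4 and Bnc1 no read, while Gpm6a had 1534 to 1999. The platelet gene Pf4 had 140 to 214 in control libraries and 108 to 131 in Klf5 LKO, without overlap, and did not pass (limma log2 fold change -0.52, adjusted p = 0.584). Ppbp had no read.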
